A study of Mus musculus with 6 samples.

Results

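The mitotic genes described here are 37 genes whose products act in G2 and M phase: cyclins, kinases, checkpoint, kinetochore, spindle and cytokinesis genes. They were picked by gene name as genes of these functions, with earlier results of the same 6 libraries known, so the counts below do not come from an independent choice. Each of the 37 had a row of its own among the 23108 named rows of the deposited table. Messenger RNA was sequenced from the distal colon of 3 TNFR2 knockout (TNFR2-/-) and 3 wildtype mice, all males of 8 weeks. The strain is given as C57Bl/6 for both genotypes. TNFR2, whose gene is Tnfrsf1b, is a receptor for tumor necrosis factor. The sources used here do not say which part of the gene is deleted or whether the wildtype mice were littermates. Each library is 1 mouse, and values are FPKM, fragment numbers per unit of transcript length and of sequenced fragments, as the authors deposited them.

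Cells of the colon divide in the lower part of the crypts, where stem cells and their transit-amplifying daughters renew the epithelium, and differentiated cells toward the surface have left the cycle. Transcription of mitotic genes is low in resting cells and climbs late in the cycle. The complex of MuvB with B-Myb or FoxM1 binds their promoters then, often at a CHR element, and NF-Y binds CCAAT boxes nearby. Cyclin B with Cdk1 drives entry into mitosis, the spindle checkpoint holds cells until chromosomes are attached, and the anaphase-promoting complex then marks cyclin B and securin for destruction.

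The libraries differed in tissue as well as genotype. Tnfrsf1b averaged 1.07 ± 0.131 FPKM in knockout and 7.95 ± 0.398 FPKM in wildtype libraries (SD, n = 3 each), so every library carried the value its label implies. The smallest steps between low FPKM values give relative depths, with the first wildtype library set to 1, of 0.874 to 1.10 in knockout and 0.736 to 1.02 in wildtype libraries. The colon epithelium was present in every library: of 20 epithelial genes 18 had a row of their own, none was at 0 throughout, and the list median was 288, 218 and 280 FPKM in knockout against 224, 318 and 248 FPKM in wildtype libraries 1, 2 and 3. Skin and skeletal muscle genes were also present. The median of 14 skeletal muscle genes was 4.76, 118 and 62.0 FPKM in knockout and 514, 153 and 172 FPKM in wildtype libraries. For 20 skin keratinocyte genes the median was 3.94, 21.9 and 25.8 FPKM in knockout and 44.1, 21.6 and 55.3 FPKM in wildtype libraries. Knockout library 1 was lowest in both lists, while wildtype libraries 1 and 3 were the highest.

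All 37 mitotic genes had a higher mean in knockout than in wildtype colon, by 1.23-fold (Anln) to 1.69-fold (Kif2c), with a median of 1.46-fold. Of all tested genes 42.6% had a higher mean in knockout. In 34 of the 37, every knockout library lay above every wildtype library, against 9.3% of the 14564 genes tested. The exceptions were Aurkb, Birc5 and Mad2l1. None of the 37 was called, that is, had an adjusted p under 0.05 in the test across all genes: the smallest Benjamini-Hochberg adjusted p in limma was 0.107, for Ccnb2, and 0.288% of all tested genes passed, 0.185% with a higher mean in knockout. An unadjusted limma p under 0.05 with a higher mean in knockout was reached by 36 of the 37, the exception being Mad2l1, against 6.3% of all tested genes. On the log2(FPKM + 1) scale the difference, knockout minus wildtype, had a median of 0.47 over the 37, and of -0.03 over all tested genes. The 37 were measured in the same 6 libraries and are not independent of each other. In whole tissue, more dividing cells and more of these RNAs per dividing cell cannot be told apart, and nor can fewer cells and less RNA per cell for a gene that is lower.

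**Figure D1:**
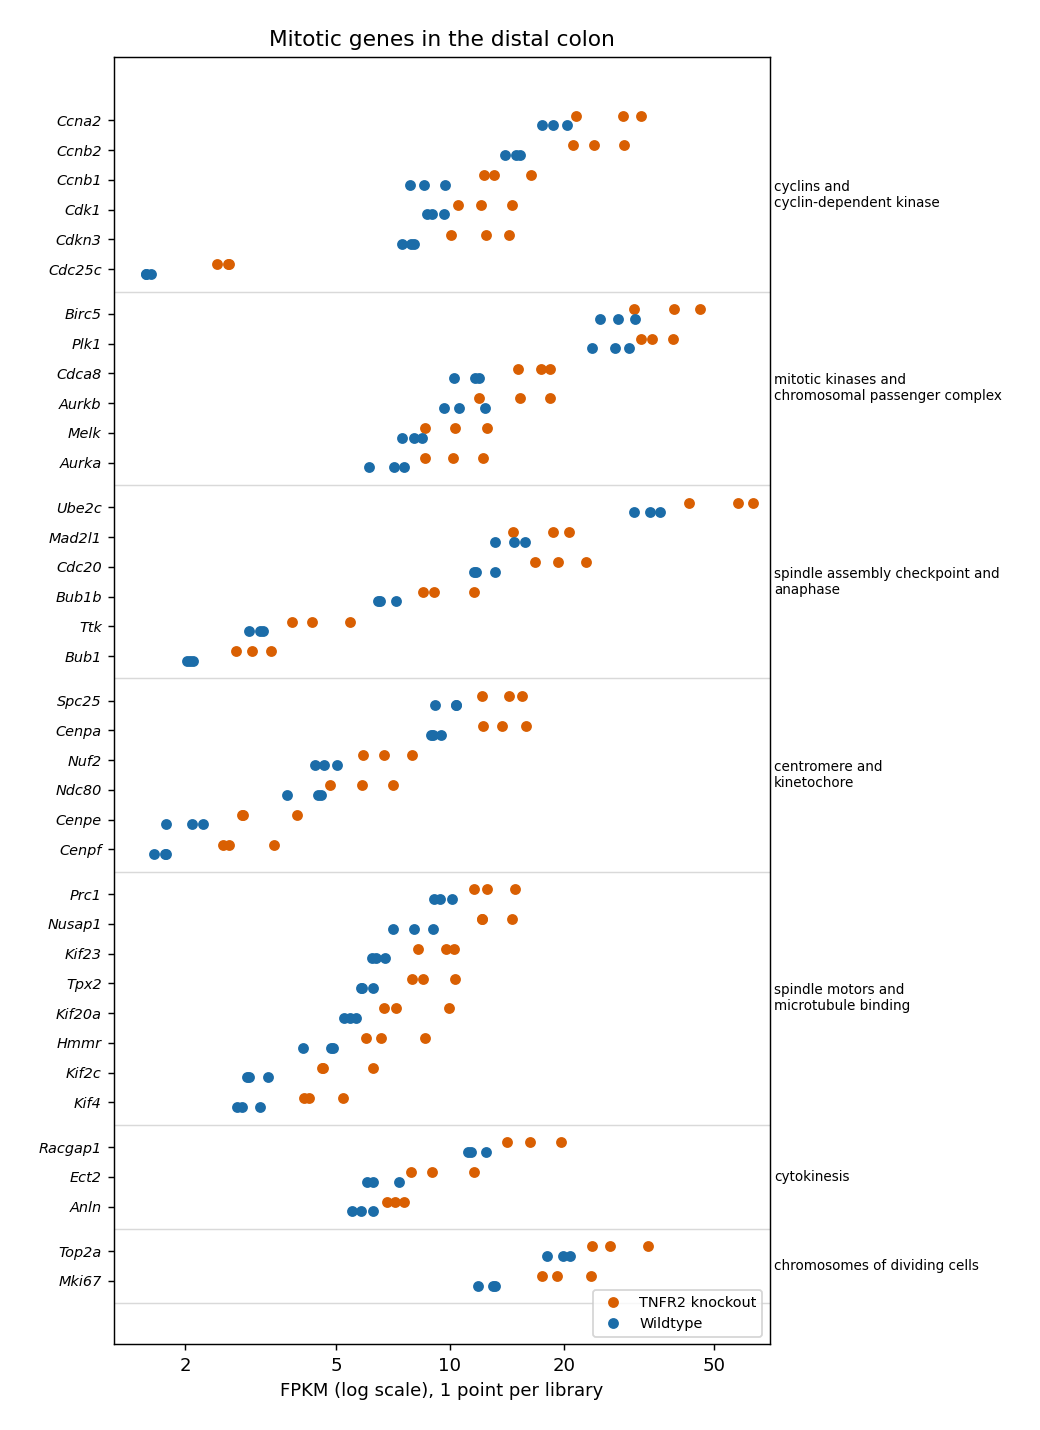
FPKM on a log axis for the 37 mitotic genes, 1 point per library, with TNFR2 knockout libraries drawn above wildtype libraries in each row and genes grouped by role. In 34 rows the knockout points lie wholly to the right of the wildtype points, and in the rows of Aurkb, Birc5 and Mad2l1 they overlap.

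Ccnb2, which encodes cyclin B2 (chromosome 9, 70407689 to 70421554, mm10), had the smallest p of the 37, and Cdca8, which encodes borealin (chromosome 4, 124918465 to 124936917), the smallest of the kinase and passenger complex genes. Each had the smallest p of its role class, and this pair is shown because both promoters hold repeated CCAAT boxes. More than 1 CCAAT match was present in 19 of the 34 mitotic promoters found. The letters are RefSeq's, from GRCm38.p6, and run 5′ to 3′ along the gene up to its annotated start: chr9:70421555-70421804, minus strand, for Ccnb2, and chr4:124936918-124937067, minus strand, for Cdca8. Capitals mark CCAAT or its reverse complement ATTGG, and TTTGAA or its reverse complement TTCAAA, the core of the CHR element.
Ccnb2: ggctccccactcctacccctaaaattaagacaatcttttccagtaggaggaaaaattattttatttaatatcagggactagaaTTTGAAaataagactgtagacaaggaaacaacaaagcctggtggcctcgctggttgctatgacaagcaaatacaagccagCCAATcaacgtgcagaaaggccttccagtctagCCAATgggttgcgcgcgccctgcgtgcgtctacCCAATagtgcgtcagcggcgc
Cdca8: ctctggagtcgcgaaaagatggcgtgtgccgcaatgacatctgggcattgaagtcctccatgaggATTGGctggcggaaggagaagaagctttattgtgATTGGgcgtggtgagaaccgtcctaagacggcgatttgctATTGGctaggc

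Each of these promoters holds 3 CCAAT matches, at 87, 54 and 21 bases before the start of Ccnb2 and at 85, 51 and 11 bases before that of Cdca8. Ccnb2 also has a TTTGAA match at 167 bases. The 250 bases before the start were searched on both strands in the 34 RefSeq promoters found for 32 of the 37 genes, of which Ect2 and Prc1 have overlapping pairs. A CCAAT match was present in 26 of the 34, or 76.5%, against 33.8% of all 32851 promoters. More than 1 CCAAT match was present in 55.9% of the mitotic promoters and in 10.1% of all promoters. TTTGAA was present in 32.4% of the mitotic promoters against 15.99% of all promoters, and both motifs in 29.4% against 5.55%. Among other lists chosen by gene function, TTTGAA was present in 31 of 84 promoters of other mitotic genes and in 6 of 50 promoters of S phase genes. CCAAT was not particular to the mitotic genes: it was present in 51 of the same 84 and in 31 of the same 50 promoters. For cell cycle regulators it was present in 17 of 41. More than 1 CCAAT match was present in 29.8%, 30.0% and 17.1% of the promoters of these 3 lists. The motifs can share at most 1 base.

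Cdk1, Cdkn3, Cdc20, Ube2c, Prc1, Ect2, Mki67, Top2a and Ccnb2 were the genes whose promoters hold both motifs. Neither was found in this window for Anln, Birc5, Mad2l1, Melk, Ndc80, Nuf2 and Nusap1. Of these, Nusap1 alone had a log2 difference above the median of the 37, at 0.63 against 0.47. The others were Nuf2 at 0.46, Birc5 at 0.44, Ndc80 at 0.39, Melk at 0.34, Mad2l1 at 0.28 and Anln at 0.25. Whether the differences go with the motifs was not tested. Bases after the annotated start were not searched, so a match there was not counted. Whether a TTTGAA match is part of a working CHR element was not tested. These letter matches are a description of the sequence, and no binding was measured in this study.

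**Figure D2:**
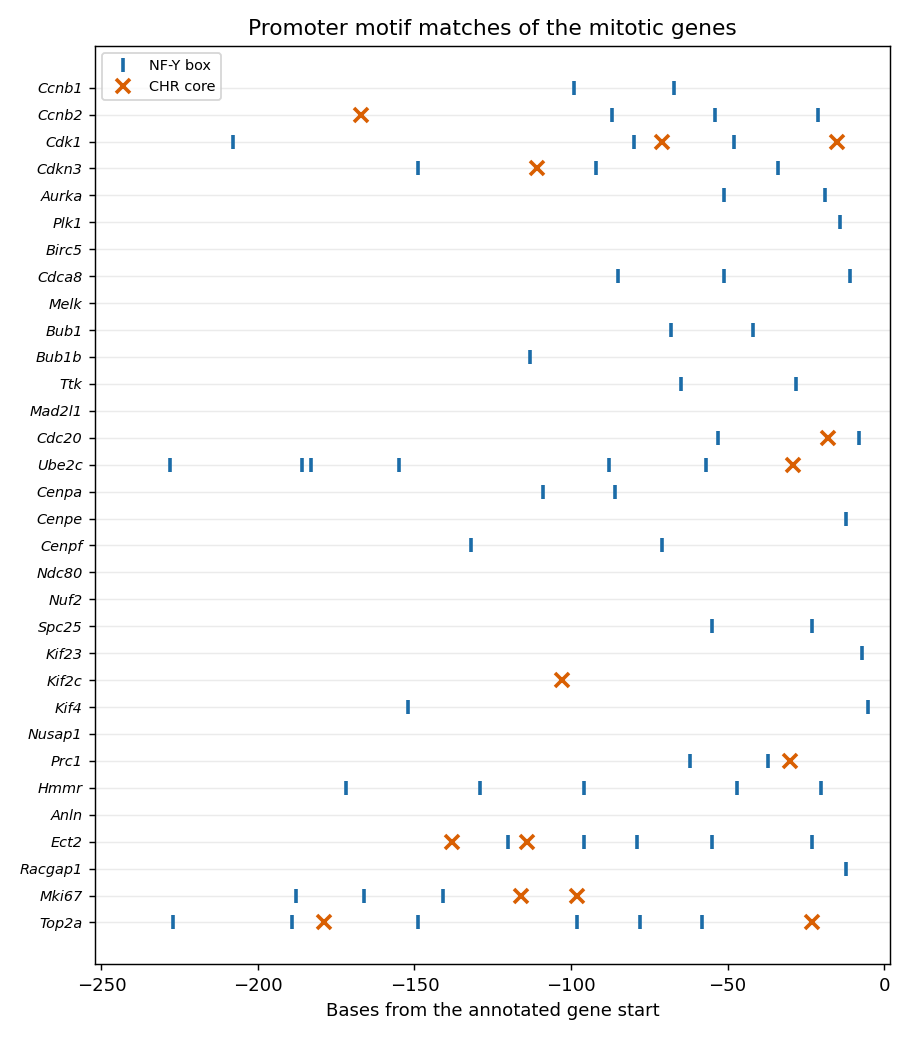
Positions of motif matches in the 250 bases before the annotated start of 32 mitotic genes, with bars for the CCAAT box bound by NF-Y and crosses for the CHR core; overlapping promoters of 1 gene share a row. Rows of Ube2c, Hmmr and Top2a hold 5 or more bars, and 7 rows hold no match. The row of Ect2 joins overlapping promoters with 3 and 2 CCAAT matches, so a site within both is drawn more than once.

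Cyclins, Cdk1 and their regulators set the timing of mitosis, and all 6 of these genes lay wholly higher in knockout libraries. Ccnb2 measured 28.9, 21.2 and 24.0 FPKM in knockout libraries 1, 2 and 3, against 15.0, 14.0 and 15.3 FPKM in wildtype libraries. Every knockout value exceeded every wildtype value, and the wildtype libraries lay close together. The log2 difference was 0.70 ± 0.11 (SE; limma, Benjamini-Hochberg adjusted p = 0.107). Ccna2, cyclin A2, which pairs with Cdk2 in S phase and Cdk1 in G2, measured 32.0, 21.5 and 28.7 FPKM in knockout against 17.5, 20.4 and 18.8 FPKM in wildtype libraries. Its knockout library 2 lay only just above wildtype library 2 (log2 difference 0.50 ± 0.14, SE; limma, Benjamini-Hochberg adjusted p = 0.234). Ccnb1, cyclin B1, averaged 13.9 ± 2.17 FPKM in knockout and 8.71 ± 0.955 FPKM in wildtype, and Cdk1 itself 12.4 ± 2.05 FPKM in knockout and 9.13 ± 0.489 FPKM in wildtype (SD, n = 3 each). Cdc25c, a phosphatase that activates Cdk1, was the lowest of the 37, at 2.55 ± 0.104 FPKM in knockout and 1.59 ± 0.0289 FPKM in wildtype libraries. Ccnb1 and Cdc25c both had a ratio of means of 1.60. Cdkn3, a phosphatase that acts on Cdk1 and Cdk2, averaged 12.3 ± 2.12 FPKM in knockout and 7.82 ± 0.305 FPKM in wildtype libraries.

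Aurora and Polo kinases build the spindle, and the chromosomal passenger complex, made of Aurora B, survivin, borealin and INCENP, corrects wrong attachments. The differences among these 6 genes ran from 0.34 to 0.55 on the log2 scale. Birc5, which encodes survivin (chromosome 11, 117849237 to 117855743), measured 45.7, 30.8 and 39.1 FPKM in knockout against 24.98, 27.8 and 30.8 FPKM in wildtype libraries. Knockout library 2 and wildtype library 3 nearly coincided, so the groups touch (log2 difference 0.44 ± 0.15, SE; limma, Benjamini-Hochberg adjusted p = 0.269). Plk1, Polo-like kinase, measured 39.0, 32.0 and 34.3 FPKM in knockout against 23.8, 29.8 and 27.3 FPKM in wildtype libraries. Its groups did not overlap, but the difference was among the smaller ones (0.37 ± 0.11, SE; limma, Benjamini-Hochberg adjusted p = 0.234). Cdca8, whose promoter is shown above, measured 18.4, 15.2 and 17.4 FPKM in knockout against 10.3, 11.7 and 11.96 FPKM in wildtype libraries. No wildtype library reached the lowest knockout library (log2 difference 0.55 ± 0.09, SE; limma, Benjamini-Hochberg adjusted p = 0.122). Its partner Aurkb averaged 15.2 ± 3.21 FPKM in knockout and 10.9 ± 1.39 FPKM in wildtype (SD, n = 3 each), with knockout library 2 below wildtype library 3. Aurka, the Aurora kinase of the spindle poles, averaged 10.4 ± 1.83 FPKM in knockout and 6.94 ± 0.751 FPKM in wildtype, and the kinase gene Melk 10.5 ± 1.97 FPKM in knockout and 7.98 ± 0.489 FPKM in wildtype.

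Checkpoint genes delay anaphase, and Cdc20 and Ube2c, an activator and the ubiquitin-conjugating enzyme of the anaphase-promoting complex, end the delay. Ube2c (chromosome 2, 164769929 to 164772902) was the most highly expressed of the 37, at 63.1, 42.9 and 57.8 FPKM in knockout against 30.7, 33.9 and 35.9 FPKM in wildtype libraries. All knockout values were above the highest wildtype value, and the knockout libraries were spread widely (log2 difference 0.67 ± 0.15, SE; limma, Benjamini-Hochberg adjusted p = 0.179). Cdc20 measured 22.9, 16.8 and 19.3 FPKM in knockout against 11.6, 11.7 and 13.1 FPKM in wildtype libraries. Its log2 difference was 0.65 ± 0.12 (SE; limma, Benjamini-Hochberg adjusted p = 0.136). Mad2l1, the checkpoint protein that binds Cdc20, measured 20.7, 14.7 and 18.7 FPKM in knockout against 13.2, 15.8 and 14.8 FPKM in wildtype libraries. Knockout library 2 lay below both wildtype libraries 2 and 3, and Mad2l1 was the gene with the largest p of the 37 (log2 difference 0.28 ± 0.13, SE; limma, Benjamini-Hochberg adjusted p = 0.342). The checkpoint kinases Bub1 and Ttk and the pseudokinase Bub1b had ratios of means between 1.44 and 1.47, with no overlap between genotypes.

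Centromere and kinetochore genes encode the platform that grips spindle microtubules, and all 6 lay wholly higher in knockout libraries. Cenpa, the histone H3 variant that marks centromeres (chromosome 5, 30666820 to 30674874), measured 15.9, 12.2 and 13.8 FPKM in knockout against 9.03, 9.51 and 8.91 FPKM in wildtype libraries. The wildtype libraries lay within a narrow range and every knockout library stood clear of it (log2 difference 0.55 ± 0.10, SE; limma, Benjamini-Hochberg adjusted p = 0.134). Spc25, a subunit of the Ndc80 complex, measured 15.5, 12.2 and 14.3 FPKM in knockout against 9.14, 10.4 and 10.4 FPKM in wildtype libraries. No values overlapped, and knockout library 2 was the nearest to wildtype (log2 difference 0.45 ± 0.10, SE; limma, Benjamini-Hochberg adjusted p = 0.182). The other subunits listed, Ndc80 and Nuf2, averaged 5.92 ± 1.13 and 6.85 ± 1.02 FPKM in knockout, against 4.26 ± 0.473 and 4.70 ± 0.317 FPKM in wildtype libraries (SD, n = 3 each). The ratios of means were 1.40 for Spc25, 1.39 for Ndc80 and 1.46 for Nuf2. Cenpe, a kinesin of the kinetochore, and Cenpf, a large protein of its outer layer, had low levels and ratios of 1.58 and 1.64.

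Spindle motors and microtubule-binding proteins formed the largest class, and all 8 genes lay wholly higher in knockout libraries. Kif2c, a kinesin that takes microtubules apart at centromeres, had the highest ratio of the 37, with 6.29, 4.62 and 4.59 FPKM in knockout against 2.91, 2.95 and 3.30 FPKM in wildtype libraries (log2 difference 0.59 ± 0.12, SE; limma, Benjamini-Hochberg adjusted p = 0.159). Nusap1, which bundles spindle microtubules, measured 14.6, 12.2 and 12.2 FPKM in knockout against 7.06, 8.06 and 9.06 FPKM in wildtype libraries. Prc1, which crosslinks the microtubules of the central spindle, measured 14.9, 11.6 and 12.6 FPKM in knockout against 9.11, 9.43 and 10.1 FPKM in wildtype libraries. Prc1 had the smallest difference of this class, at 0.40 ± 0.10 on the log2 scale (SE; limma, Benjamini-Hochberg adjusted p = 0.199), and Nusap1 the largest, at 0.63 ± 0.11 (adjusted p = 0.129). Kinesins of the central spindle and chromosome arms, Kif20a, Kif23 and Kif4, had ratios of 1.46, 1.46 and 1.56. Tpx2, which activates Aurora A, and Hmmr, a spindle pole protein, had ratios of 1.49 and 1.53.

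Cytokinesis genes included the gene with the smallest ratio of the 37. Anln, anillin of the contractile ring, measured 7.16, 6.85 and 7.59 FPKM in knockout against 5.83, 5.53 and 6.26 FPKM in wildtype libraries. The groups did not overlap and the spread was small in both (log2 difference 0.25 ± 0.07, SE; limma, Benjamini-Hochberg adjusted p = 0.234). Anln and Cdc25c were the only members of the 37 that were highest in knockout library 3. Ect2, the exchange factor that activates RhoA at the cleavage site, measured 11.6, 7.90 and 8.97 FPKM in knockout against 6.05, 6.27 and 7.33 FPKM in wildtype libraries. Racgap1, its partner at the central spindle, measured 19.6, 14.1 and 16.3 FPKM in knockout against 11.2, 11.4 and 12.5 FPKM in wildtype libraries. These partners had ratios of 1.45 and 1.43, with log2 differences of 0.46 ± 0.14 and 0.47 ± 0.12 (SE; limma, Benjamini-Hochberg adjusted p = 0.237 and 0.208).

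Mki67 and Top2a, which coat and untangle the chromosomes of dividing cells, are widely used as markers of proliferation. Mki67 (chromosome 7, 135689774 to 135716442) measured 23.7, 17.6 and 19.2 FPKM in knockout against 11.9, 13.2 and 13.0 FPKM in wildtype libraries. Top2a measured 33.4, 23.8 and 26.5 FPKM in knockout against 18.1, 20.8 and 19.9 FPKM in wildtype libraries. Neither gene overlapped between genotypes, and knockout library 1 was highest in both. Their log2 differences were 0.62 ± 0.11 and 0.48 ± 0.13 (SE; limma, Benjamini-Hochberg adjusted p = 0.139 and 0.218).

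The authors' deposited table of their own comparison gives the same direction for all 37 genes, with log2 fold changes between 0.30 and 0.74. By the authors' deposited table, 22 of the 37 have an unadjusted p under 0.05 with a higher knockout value, against 1.02% of the genes tested here, and none has an adjusted p under 0.05 in that deposited table. The smallest adjusted p among the 37 in the authors' deposited table is 0.0689, for Ccnb2. The authors' table was made from the same 6 libraries.

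The knockout libraries differed among themselves in a shared order. Knockout library 1 was the highest of the 6 libraries for 35 of the 37 genes, and knockout library 2 the lowest knockout library for 33. Relative to each gene's wildtype mean, the median over the 37 was 1.72 in knockout library 1, 1.28 in knockout library 2 and 1.42 in knockout library 3, against 0.939, 1.02 and 1.04 in wildtype libraries 1, 2 and 3. Wildtype library 1 was the lowest wildtype library for 29 genes. The coefficient of variation between libraries had a median of 16.6% in knockout and 7.03% in wildtype for the 37 genes. Over the 14535 tested genes with a value above 0 in both groups the medians were 9.78% and 8.85%.

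Epithelial, skin and muscle genes moved with this order in part. The epithelial list had the same order among knockout libraries, with medians of 288 FPKM in library 1, 280 FPKM in library 3 and 218 FPKM in library 2. Its wildtype medians ran from 224 FPKM in library 1, the lowest in mitotic genes, to 318 FPKM in library 2. The part of the epithelial share in the mitotic values was not tested beyond the scaling given below. The library lowest in skin and muscle genes, knockout library 1, was the highest in mitotic genes, and wildtype library 1, highest in muscle genes, was the lowest in mitotic genes. Wildtype library 3, the highest in skin genes, was the highest wildtype library for 19 of the 37. With the mean of the skeletal muscle list as a covariate, chosen after seeing the data, the median log2 difference of the 37 was 0.23 and 16 of them had an unadjusted limma p under 0.05 with a higher knockout value, against 3.08% of all genes in that fit. With the skin list as a covariate the median was 0.37 and 30 reached it, against 3.88% of all genes. Both lists differ between the genotypes, so what belongs to tissue and what to genotype cannot be told apart in these fits.

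**Figure D3:**
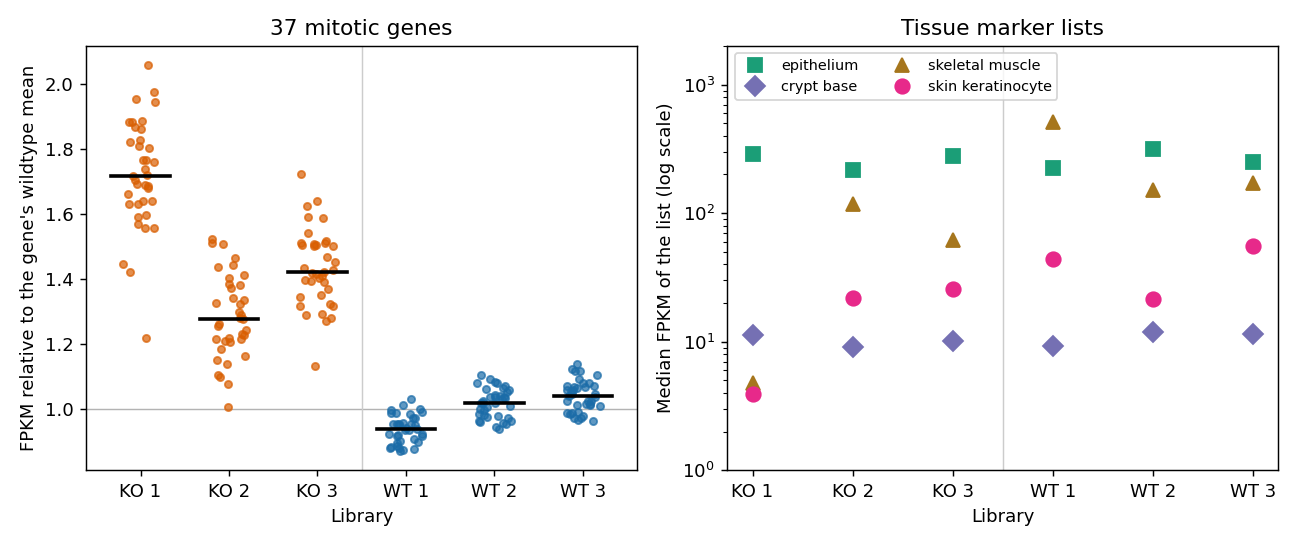
Left, FPKM of the 37 mitotic genes in each library divided by the gene's wildtype mean, 1 point per gene, with a bar at the median; right, median FPKM of 4 tissue marker lists in the same libraries on a log axis. Median mitotic levels are 1.72, 1.28 and 1.42 in knockout libraries and 0.939, 1.02 and 1.04 in wildtype libraries, and the skin and muscle medians are lowest in knockout library 1.

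Knockout library 2 and wildtype library 2 had nearly equal skin medians (21.9 and 21.6 FPKM) and close muscle medians (118 and 153 FPKM). Their medians over 16 hair follicle genes were 0.269 and 1.28 FPKM, so the pair was not matched in every tissue list. Between these 2 mice, 36 of the 37 mitotic genes were higher in the knockout, with a median ratio of 1.26. The exception was Mad2l1. Knockout library 3 exceeded wildtype library 2 in all 37, with a median ratio of 1.43. In the same libraries the epithelial median was 218 and 280 FPKM in knockout libraries 2 and 3 and 318 FPKM in wildtype library 2. Without knockout library 1 and wildtype libraries 1 and 3, a choice made after seeing the data, the median log2 difference was 0.33 and 18 of the 37 had an unadjusted limma p under 0.05 with a higher knockout value, against 3.03% of all genes in that fit. That fit holds a lone wildtype library, which is assumed to vary like the knockout libraries.

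For scaling to the epithelial list, each library was divided by 1 factor, its median ratio over the genes of that list (0.861 to 1.15). On that scale the 37 had a median log2 difference of 0.41, against -0.09 over all tested genes. An unadjusted limma p under 0.05 with a higher knockout value was reached by 33 of them, against 2.04% of all genes. The factor does not measure the share of dividing crypt cells. Among 14 genes of the crypt base, where stem cells lie, 5 had higher and 9 lower means in knockout. Their summed FPKM ran from 190 to 209 in knockout and from 198 to 219 in wildtype libraries, and no gene of the list was called (limma, smallest Benjamini-Hochberg adjusted p = 0.151). Lgr5, a receptor that marks crypt stem cells, measured 1.78, 1.44 and 1.36 FPKM in knockout against 1.24, 0.915 and 0.912 FPKM in wildtype libraries, wholly higher at low levels (limma, Benjamini-Hochberg adjusted p = 0.270). Cd44, a surface protein of crypt base cells, measured 11.2, 10.9 and 10.4 FPKM in knockout against 14.7, 13.3 and 14.1 FPKM in wildtype libraries, wholly lower (limma, Benjamini-Hochberg adjusted p = 0.151). Germinal centre B cells also divide: 12 of their genes summed to 42.8 to 44.7 FPKM in knockout and 43.6 to 46.8 FPKM in wildtype libraries, with none at 0 throughout. Higher genes weigh most in these sums: Fas averaged 10.3 FPKM in knockout and 9.52 FPKM in wildtype, but Mef2b 0.0541 and 0.166 FPKM. Of the 12, 8 were high enough to be tested. The sums therefore do not measure the share of these cells. The 12 B cell genes summed to 4.74 to 24.2 FPKM in knockout and 9.53 to 25.3 FPKM in wildtype libraries. All 12 fibroblast genes, all 12 endothelial genes and all 12 smooth muscle genes had lower means in knockout, with 11, 6 and 0 of them at an unadjusted limma p under 0.05 and none called. Of 12 macrophage genes 10 had lower means, 8 of them at an unadjusted limma p under 0.05, and none was called. Over all tested genes 9.91% were lower at that p. Means were higher in knockout for 14 of 18 epithelial, 8 of 9 goblet and 8 of 11 surface colonocyte genes tested. Of these, 0, 0 and 3 were higher at an unadjusted limma p under 0.05, against 6.3% of all tested genes. All 9 B cell and all 5 T cell genes tested had lower means, as did 10 of 11 enteric neuron and glia genes. None of these genes was called. The part of these lists in the mitotic values was not tested. Which cells the mitotic transcripts come from was not tested.

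Genes of the same stage outside the 37 were looked up in a list of 88 other mitotic genes, of which 85 had a row of their own and were tested. Of these 82 had higher and 3 lower means in knockout, with a median log2 difference of 0.31, and none was called (limma, smallest Benjamini-Hochberg adjusted p = 0.139). In 53 of the 85 every knockout library lay above every wildtype library, against 9.3% of all tested genes. In 2 every knockout library lay below every wildtype library, against 12.5% of all tested genes. Cdca2, which targets a phosphatase to chromosomes, measured 3.83, 3.67 and 3.22 FPKM in knockout against 2.29, 2.40 and 2.24 FPKM in wildtype libraries. Smc4, a core subunit of condensin, measured 22.9, 21.3 and 22.1 FPKM in knockout against 17.54, 17.45 and 17.45 FPKM in wildtype libraries. Neither gene overlapped between genotypes, and knockout library 1 was the highest library for both. The 3 with lower means were Pttg1, which encodes securin, Cks1b and Anapc11, with log2 differences of -0.39, -0.08 and -0.02. Of these, Pttg1 alone had an unadjusted limma p under 0.05, at 0.013 (Benjamini-Hochberg adjusted p = 0.239).

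S phase genes, which copy the DNA earlier in the same cycle, differed from this. Of 53 tested S phase genes 23 had higher and 30 lower means in knockout, and the median log2 difference was -0.04. Every knockout library lay above every wildtype library in 1 of them and below in 2, while the whole table gives 9.3% and 12.5%. Cdc45, a subunit of the replicative helicase, measured 6.00, 5.74 and 6.63 FPKM in knockout against 5.16, 5.27 and 4.76 FPKM in wildtype libraries. Tk1, thymidine kinase, averaged 28.2 ± 3.62 FPKM in knockout and 22.8 ± 1.86 FPKM in wildtype, and Mcm3, of the helicase ring, 11.4 ± 0.645 FPKM in knockout and 14.4 ± 2.53 FPKM in wildtype (SD, n = 3 each). None of the 53 was called (limma, smallest Benjamini-Hochberg adjusted p = 0.269). Under all settings tried the median of the S phase list lay between -0.19 and 0.04, and that of the 37 mitotic genes between 0.23 and 0.57. Whether the lists differ beyond the spread of the libraries was not tested.

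Regulators of the cycle showed no common direction. Of 42 tested, 22 had higher and 20 lower means in knockout, with a median log2 difference of 0.02, and none was called (limma, smallest Benjamini-Hochberg adjusted p = 0.181). Ccnd3, a G1 cyclin, measured 29.3, 27.6 and 27.9 FPKM in knockout against 36.3, 32.98 and 37.4 FPKM in wildtype libraries, wholly lower in knockout. Cdc25b, a phosphatase that starts Cdk1 activation, measured 11.003, 10.02 and 8.74 FPKM in knockout against 7.18, 7.21 and 7.83 FPKM in wildtype libraries, wholly higher. Lin37, a subunit of MuvB, measured 25.4, 32.9 and 27.7 FPKM in knockout against 16.8, 23.4 and 16.7 FPKM in wildtype libraries, with no overlap. Foxm1 shares its row of the table with another gene and was not counted.

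**Figure D4:**
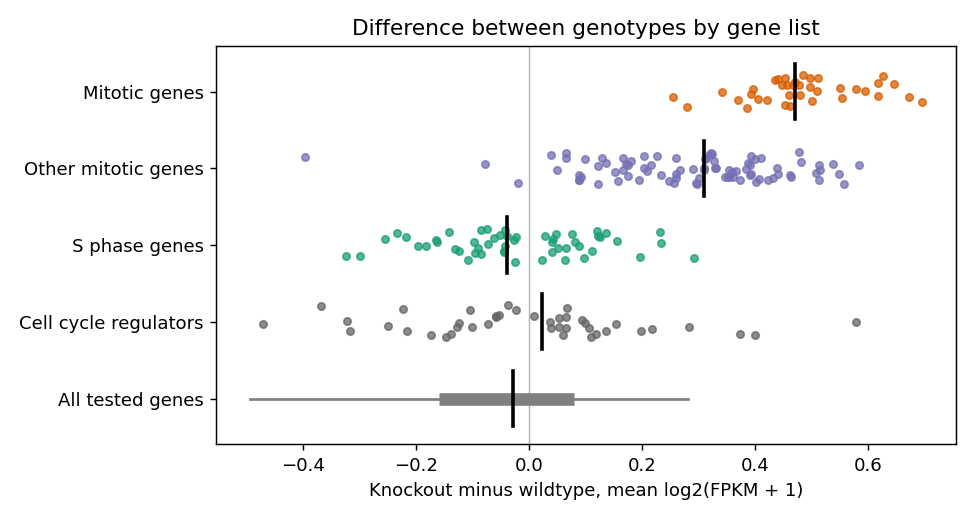
Difference between genotypes, knockout minus wildtype, in mean log2(FPKM + 1), with 1 point per tested gene of each list and a bar at the median; for all tested genes the thick line spans the quartiles and the thin line the range between the 0.05 and 0.95 quantiles. All 37 mitotic genes lie above 0, with a median of 0.47, while the S phase genes centre at -0.04.

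The direction of the 37 was the same in every fit tried, and the size of the difference was not. For the 18 members with values in every library, the difference in the alternative fits ran from 0.003, nearly no difference, to 0.83. Across the fits the median ran from 0.23, with the muscle covariate, to 0.57, without knockout library 2. No member was called in any of them, and the smallest limma, Benjamini-Hochberg adjusted p of a member was 0.0510, without knockout library 2. An exact permutation of 3 against 3 libraries cannot give a two-sided p below 0.1 for a single gene.

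**Figure D5:**
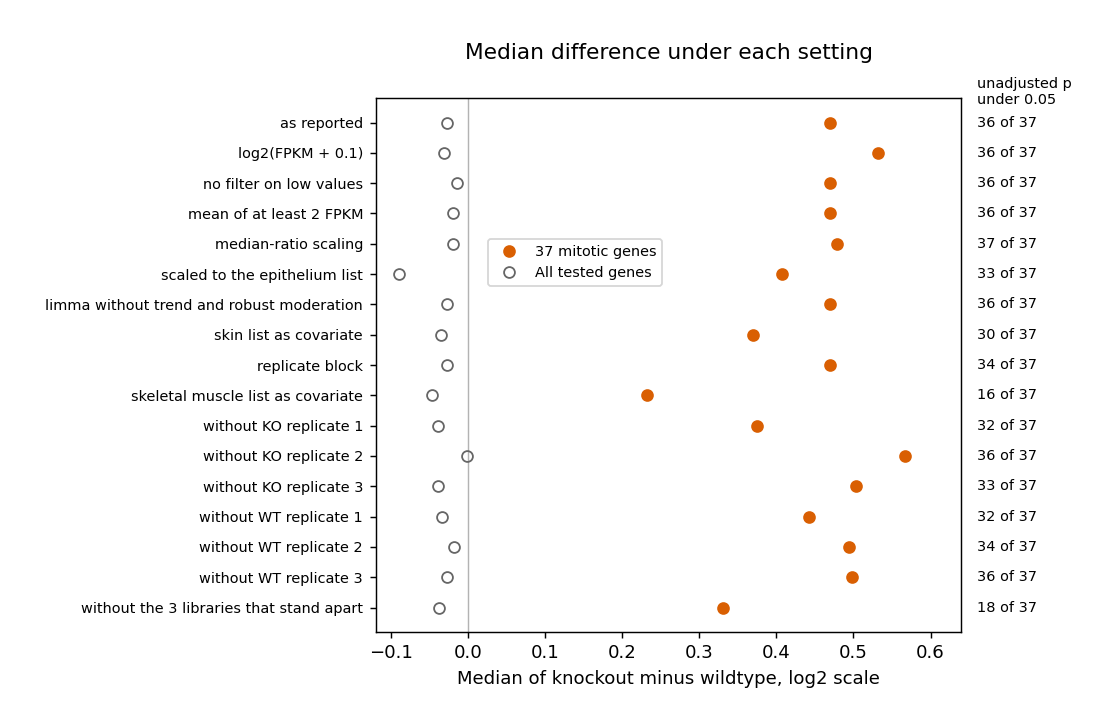
Median difference between genotypes on the log2 scale under each setting, with filled points for the 37 mitotic genes and open points for all tested genes, and at the right the number of the 37 with an unadjusted limma p under 0.05. The filled points lie between 0.23 and 0.57 and the open points, none above 0, reach down to -0.09.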

How the data were processed

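Distal colon mRNA of 3 TNFR2 knockout and 3 wildtype mice was compared. The deposited table gives FPKM per library, FPKM per group, and the authors' own p-value, adjusted p-value and log2 fold change, per the file headers. Each library is 1 of 3 mice per genotype, per the labels' protocols. The limma p-values given here set the difference between genotypes against the spread between these mice. That fold column also holds placeholders where a group is 0. It gives 0.0 as well for some genes with FPKM above 0 in both groups, such as Neil1 and Ephb2. Such genes remain among the genes tested here. Per the series' design text, reads were aligned with Tophat2 and Bowtie2, assembled with Cufflinks and tested with Cuffdiff 2; the submitters' processing notes give mm10 as the build. For releases, annotation, strand handling, scaling between libraries and reads shared with pseudogenes, the sources used here give nothing. FPKM are not counts, so the total depth of each library is unknown and no counting interval was computed.

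Rows with no gene name, 6.13% of rows and 17.7% of summed FPKM, were left out. The remaining rows with a mean of at least 0.5 FPKM, 14564 in number, were put on a log2(FPKM + 1) scale and fitted by limma 3.58.1 (R 4.3.3) with a trend on the mean level, robust moderation and no covariates, and p-values were adjusted over all of them by Benjamini-Hochberg with a threshold of 0.05. Differences on this scale understate the change of low genes. The test was tried on simulated data. Lists counted only genes with a row of their own. Coordinates are 1-based, from the deposited loci. Figures used matplotlib 3.10.9.

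The members and lists were chosen with earlier results of these data known. Values in every library are given, in each role class, for the pair of genes with the highest mean and the gene with the smallest p, and over all members for the 3 with the largest and the 3 with the smallest ratio of means, with 0.1 FPKM added to each mean; from the other cell cycle lists the 3 genes with the smallest p may be named. Pttg1, Cks1b, Anapc11, Lgr5 and Cd44 were named after their values were seen. Alternatives were another pseudocount, other filters and scalings, plain limma, covariates, the replicate number as a block, and leaving out libraries.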

Additional observations from a re-analysis of the deposited data

How the results depend on the processing

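All 37 mitotic genes had a difference above 0 in the 17 fits tried, and none was called in any. With the skeletal muscle list as a covariate the median difference was 0.23 and 16 had an unadjusted limma p under 0.05; the count was 18 without the 3 libraries that stand apart. The number of all genes called in limma was 42 as reported, 26 with the skin covariate, 21 with the muscle covariate and 130 without those 3 libraries, a fit with a lone wildtype library. Leaving out 1 library at a time gave 21 (without knockout 3), 27 (without wildtype 1), 74 (without wildtype 2), 22 (without wildtype 3), and 39 and 35 without knockout 1 and 2; the cause was not tested. Over these fits the median of the 37 ran from 0.37 to 0.57 and the count at an unadjusted p under 0.05 from 32 to 36. Tnfrsf1b was called lower in every fit, at -2.79 to -2.06.

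For same-numbered libraries 1, 2 and 3, deviations from the group means correlated at -0.37, -0.34 and 0.21. Differently numbered libraries ran from -0.24 to 0.47. Deviations within a group cancel out, so these correlations depend on each other. They cannot show whether same-numbered libraries share a litter, day or batch, and this was not tested. With the replicate block 24 genes were called, 34 of the 37 had an unadjusted limma p under 0.05, and the median of the 37 was 0.47. Absolute depth is unknown, so the counting error of the lowest members could not be given.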
